A study of Mus musculus with 10 samples.

Results

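Replication-dependent histone genes encode the histones that package newly copied DNA: the core histones H2A, H2B, H3 and H4, which build the nucleosome in equal amounts, and the linker histone H1, which binds the DNA between nucleosomes. They were taken here by gene symbol, as every gene named in the H1f, H2ac, H2bc, H3c or H4c series of both deposited tables (H1f1 to H1f5 for H1), a rule that uses names only. This gave 66 of 21934 gene symbols: 5 H1, 18 H2A, 18 H2B, 12 H3 and 13 H4 genes.

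The libraries come from a mouse study of Wdr4, the partner of the tRNA methyltransferase Mettl1, and of translation in macrophages. Ribosome profiling sequences the mRNA stretches that ribosomes shield from nuclease (footprints), and each condition has 1 such library and 1 library of poly(A)-selected input RNA, 10 libraries in all. The iBMDM libraries are of a monoclonal immortalized line of bone marrow-derived macrophages, labelled WT or, after lentiviral delivery of a guide RNA against Wdr4 and puromycin selection, sgWdr4-1 (guide 1) or sgWdr4-2 (guide 2). The TAM libraries are of F4/80-sorted macrophages from orthotopic liver tumours grown from Hepa1-6 hepatoma cells, in hosts labelled Wdr4 ff (ff, the control) or Wdr4 cKO (cKO, a knockout limited to myeloid cells). The sources used here do not give the driver of that deletion, the age of the mice, the number of mice behind a library or the treatment of the WT line. Values are taken to be TPM from the names under which they were deposited. TPM scales reads for gene length and to a fixed total per library, so that levels of different genes can be compared. The length used for each gene is not given in the sources used here, so comparisons between genes depend on it. Read depth is unknown, and the 2 tables were normalised separately.

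Both tables held facts that touch every result. In the input the Wdr4 level was 44.6 TPM with the label WT against 31.3 TPM with guide 1 and 44.5 TPM with guide 2, and 39.8 TPM in ff against 20.9 TPM in cKO, while Wdr4 footprints were higher in each targeted library than in its control. The groups are therefore named by their labels. The macrophage label was not borne out by most of its markers. Over all input libraries 19 of 23 macrophage genes stayed under 1 TPM, while Cd14 ranged from 13.8 to 19.8 TPM. Of 15 fibroblast and stellate cell genes, 10 were at 5 TPM or more in all input libraries. The other 5 (Pdgfra, Dcn, Lum, Fap and Thy1) stayed under 1 TPM in all of them. Adgre1, which encodes the sorted F4/80 protein, and Aif1 were listed at 0 throughout. The summed macrophage list ranged from 527 to 688 TPM, of which Lgals3, a gene that other cell types express too, made up 503 to 669 TPM. The summed fibroblast list ranged from 7809 to 10833 TPM over the input libraries. It was led by Acta2 (2397 to 3785 TPM), Vim (2116 to 2636 TPM) and Fn1 (1180 to 1802 TPM). The part of these cell types in the histone values was not tested. Mitochondrially encoded genes took 0.781% of footprint TPM with guide 1 and between 9.94% and 14.6% in the other 4 libraries, so the guide 1 footprint library stood apart.

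Most replication-dependent histone mRNAs are made in S phase, when DNA is copied, and end in a short stem-loop in place of a poly(A) tail. The stem-loop is bound by the protein Slbp, which is needed for 3' end processing and translation of these mRNAs, and the mRNAs are degraded when replication stops. The genes lie in clusters and mostly lack introns, and many encode the same protein, so that reads from near-identical copies can be hard to assign. Because the input was poly(A)-selected, the footprints are the main readout for these genes.

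Of the 57 members with a window in the RefSeq promoter table (build GRCm38.p6), 49 lie on chromosome 13 and 8 on chromosome 3. The upstream sequence is shown for 1 gene of each class, to set the shared and differing letters beside the values that follow. H2ac6, H3c3 and H4c4 had the most footprints of their class. H1f5 and H2bc8 had the largest difference of theirs under guide 1, a choice made after the values were seen. Each line gives the 150 bases before the transcription start. Capitals mark, on either strand, the CCAAT box (CCAAT), the TATA box (TATAAA), the octamer of histone promoters (ATTTGCAT) and the core of the H1 AC box (AAACACA).
H1f5, chr13:21780626-21780775, minus strand: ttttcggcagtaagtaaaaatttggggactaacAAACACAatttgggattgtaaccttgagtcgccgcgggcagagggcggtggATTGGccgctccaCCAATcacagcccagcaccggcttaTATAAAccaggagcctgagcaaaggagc
H2ac6, chr13:23683960-23684109, minus strand: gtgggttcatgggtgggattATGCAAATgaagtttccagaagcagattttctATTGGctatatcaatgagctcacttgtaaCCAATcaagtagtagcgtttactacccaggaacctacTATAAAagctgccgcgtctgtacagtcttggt
H2bc8, chr13:23571250-23571399, plus strand: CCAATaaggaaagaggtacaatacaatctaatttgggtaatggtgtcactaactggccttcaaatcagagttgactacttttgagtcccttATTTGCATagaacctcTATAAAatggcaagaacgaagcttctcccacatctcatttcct
H3c3, chr13:23745522-23745671, minus strand: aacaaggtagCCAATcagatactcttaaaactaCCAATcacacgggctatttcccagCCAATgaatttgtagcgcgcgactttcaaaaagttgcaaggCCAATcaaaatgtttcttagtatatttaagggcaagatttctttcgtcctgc
H4c4, chr13:23581418-23581567, plus strand: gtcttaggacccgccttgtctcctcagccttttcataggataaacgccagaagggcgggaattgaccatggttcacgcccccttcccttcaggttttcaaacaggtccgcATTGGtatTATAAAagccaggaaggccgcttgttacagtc
In these stretches TATAAA began 28 bases before the start in H1f5, 32 bases before it in H2ac6 and H4c4 and 43 bases before it in H2bc8, while H3c3 held 4 copies of CCAAT and no TATAAA.

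Over the full windows, from 250 bases before to 50 bases after the start, the letters were spread unevenly among the classes. CCAAT was present in all 5 H1, 17 H2A, 15 H2B and 10 H3 windows but in 3 of 11 H4 windows (H4c1, H4c3 and H4c4), against 37.4% of all 32851 promoter windows. The octamer ATTTGCAT was found in 6 of 17 H2A and 7 of 15 H2B windows and in no H1, H3 or H4 window, against 1.74% of all windows. AAACACA was in 4 of 5 H1 windows, 2 H2A and 2 H2B windows, against 7.18% of all, and no motif of the set contains another. TATAAA was in 34 of the 58 windows of these genes (58.6%), against 13.6% of all. A match is a description of these letters only.

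Many histone genes were heavily footprinted. The 66 genes took 2.60% of footprint TPM in WT, 4.06% with guide 1, 2.50% with guide 2, 2.98% in ff and 2.46% in cKO, the guide 1 library being the highest. Of the 66 genes, 56 were above 10 TPM and 48 above 100 TPM in every footprint library, 4 were under 10 TPM in all of them (H2ac1, H2bc1, H2bc21 and H2bc27), and 6 were listed at 0 in all of them (H2ac18, H2ac19, H2bc18, H3c13, H3c14 and H3c15). The footprints were concentrated: H2bc6 and H2bc4 held 19.97% of them, the 5 highest genes 35.4% and the 10 highest genes 51.7%, by mean TPM. Ranked by mean footprint TPM among all genes, H2bc6 was at place 32, H2bc4 at 56, H2ac6 at 109 and H4c4 at 110, and 8 members were among the 200 highest genes.

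**Figure D1:**
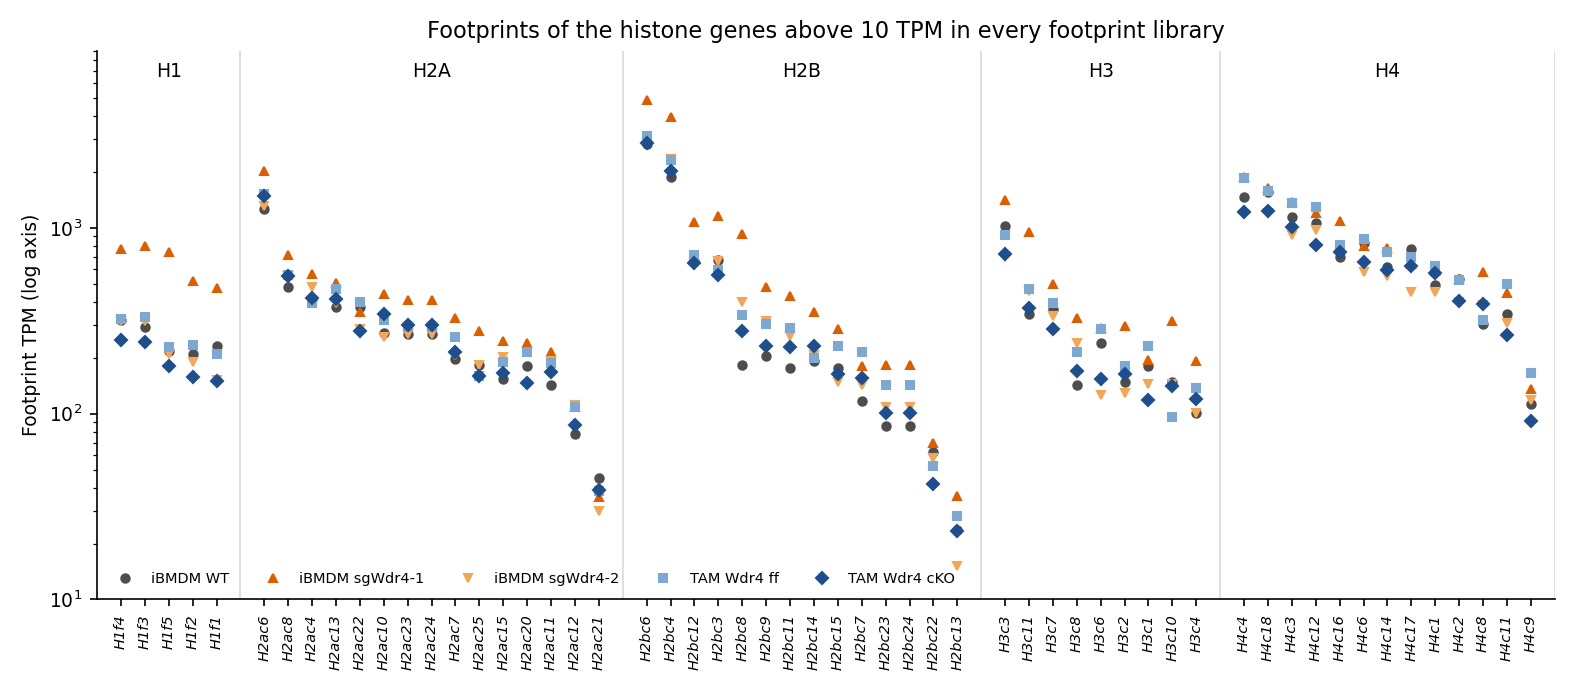
Footprint TPM (log axis) of the 56 histone genes above 10 TPM in every footprint library, grouped by class and ordered by level, with 1 point per library. The highest values are those of H2bc6 and H2bc4, and the guide 1 points lie above the others for all 5 H1 genes.

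H4 and H2B supplied most of the histone footprints. H4 held 38.3% of them in WT, 28.8% with guide 1, 33.1% with guide 2 and 38.2% in ff, and in cKO 8604 of 24583 summed TPM. H2B held 28.3% in WT, 35.1% and 33.2% with the guides, 29.3% in ff and 31.2% in cKO, H2A between 16.9% and 20.6%, and H3 between 9.14% and 11.03%. H1 held 8.15% under guide 1 and between 3.998% and 4.89% in the other libraries. H4 was the largest class in WT, ff and cKO, and H2B was the larger of the pair under guide 1, while under guide 2 H2B and H4 were close, at 8301 and 8289.8 summed TPM.

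**Figure D2:**
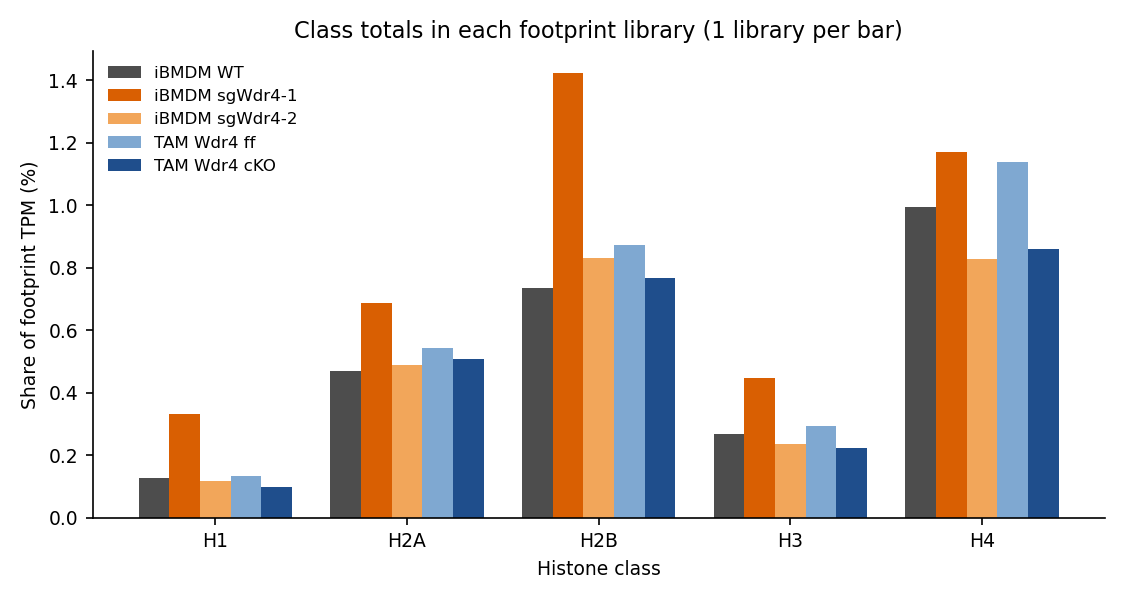
Share of footprint TPM (%) taken by each histone class, with 1 bar per library and no error bars because each bar is a single library. H4 and H2B are the tallest classes, and the guide 1 bar is the tallest in each class.

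The H4 genes, whose product pairs with H3, were all measured in every footprint library. H4c4 footprints were 1465 TPM in WT against 1879 TPM with guide 1 and 1192 TPM with guide 2, and 1857 TPM in ff against 1214 TPM in cKO. H4c18 footprints were 1572 TPM in WT against 1640.1 TPM with guide 1 and 1208 TPM with guide 2, and 1587 TPM in ff against 1231 TPM in cKO. The control and guide 1 libraries were above guide 2 and cKO for both genes. H4c3 (1161 TPM) and H4c12 (1071 TPM) followed by mean footprints over the 5 libraries. The mean footprints of the 13 H4 genes ran from 125 TPM (H4c9) to 1521 TPM (H4c4).

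The H2B genes, whose product pairs with H2A, had the highest level and, among genes above 10 TPM, the widest range. H2bc6 footprints were 2821 TPM in WT against 4878 TPM with guide 1 and 2889 TPM with guide 2, and 3127 TPM in ff against 2882 TPM in cKO. H2bc4 footprints were 1887 TPM in WT against 3969.6 TPM with guide 1 and 2341 TPM with guide 2, and 2318 TPM in ff against 2023 TPM in cKO. Guide 1 was the highest library for both genes, and the other 4 libraries lay between 2821 and 3127 TPM for H2bc6 and between 1887 and 2341 TPM for H2bc4. H2bc12 (748 TPM) and H2bc3 (729 TPM) were next by mean footprints. At the low end H2bc13 had 25.3 TPM and H2bc18 was listed at 0, both named after their values were seen.

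Among H2A genes H2ac6 stood first, and H2ac8, H2ac4 and H2ac13 followed with mean footprints of 571, 455 and 433 TPM. H2ac6 footprints were 1259.6 TPM in WT against 2024 TPM with guide 1 and 1312 TPM with guide 2, and 1533 TPM in ff against 1486 TPM in cKO. Its guide 1 value was the highest of the 5, and ff and cKO were close to each other. Neighbouring H2A and H2B genes, many of which are divergent pairs that share a promoter region, differed widely in how near their levels were. Mean footprints were 191 TPM for H2ac15 and 201 TPM for H2bc15, which were close. They were 1523 TPM for H2ac6 and 2508 TPM for its neighbour H2bc4, 98.8 TPM for H2ac12 and 748 TPM for H2bc12, and 433 TPM for H2ac13 and 25.3 TPM for H2bc13. In 12 neighbour pairs the ratio of H2B to H2A footprints ranged from 0.0165 (H2bc21 to H2ac20) to 7.57 (H2bc12 to H2ac12), the pairs being named after their values were seen.

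H3 genes gave the fewest footprints of the core classes, and 3 of the 12 were listed at 0. H3c3 footprints were 1019 TPM in WT against 1407 TPM with guide 1 and 701 TPM with guide 2, and 922 TPM in ff against 725 TPM in cKO. Guide 1 was the highest library, and guide 2 and cKO were the lowest. H3c11, H3c7 and H3c8 followed with mean footprints of 519.6, 376 and 219 TPM. RefSeq lists these genes in 2 groups of each other's synonyms, for the proteins H3.1 (H3c1, H3c8, H3c10 and H3c11) and H3.2 (the other 8). The H3.1 genes held 30.4% of H3 footprints in WT, 40.0% with guide 1, 41.5% with guide 2, 34.5% in ff and 35.6% in cKO, so the H3.2 genes held the larger share in every library.

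The 5 H1 genes, which encode the linker histones, had similar levels, with mean footprints from 244 TPM (H1f1) to 396 TPM (H1f4). H1f4 footprints were 320.1 TPM in WT against 771 TPM with guide 1 and 315 TPM with guide 2, and 324 TPM in ff against 250.1 TPM in cKO. H1f5 footprints were 217 TPM in WT against 745 TPM with guide 1 and 209 TPM with guide 2, and 229.6 TPM in ff against 181 TPM in cKO. In both genes guide 1 was at least 2-fold above every other library, and cKO was the lowest.

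Some copies could not be told apart in the deposited values. H2ac23 and H2ac24 had the same 5 footprint values to the last digit (269.6 TPM in WT), as had H2bc23 and H2bc24 (85.99 TPM in WT). Over all genes above 0 in all 5 footprint libraries, 28 of 10643 had values equal to those of another gene. How reads that fit several genes were assigned is not stated in the sources at hand, so values of single members are less certain than class sums. The 6 members listed at 0 need not lack footprints: 12 genes at 50 TPM or more in every input library were also listed at 0 in all 5 footprint libraries, among them the replication nuclease gene Fen1, with a mean input of 121 TPM.

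In the poly(A) input the same genes were near 0. Together they took 0.0128% of input TPM in WT, 0.0117% with guide 1, 0.0134% with guide 2, 0.0108% in ff and 0.0101% in cKO. The summed footprint TPM was 203 times the summed input TPM in WT, 347 times with guide 1, 187 times with guide 2, 276 times in ff and 243 times in cKO. Such a ratio compares total footprints with polyadenylated RNA alone, so it is not a translation efficiency. Of the 66 members, 26 stayed under 1 TPM over all input libraries, and 7 of these were listed at 0 throughout.

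A few members were seen in the poly(A) input of every library. H1f2 input ranged from 24.8 to 28.4 TPM over the 5 libraries, H4c9 from 14.1 to 23.8 TPM and H2bc4 from 12.3 to 20.04 TPM, and these were the only 3 members above 10 TPM in every input library. Together they held 52.6% of the histone input. H1f2 and H4c9 ranked low in footprints within their classes, at 262 and 125 TPM, while H2bc4 ranked second in its class. Next by mean input were H2ac18 (4.81 TPM, listed at 0 in footprints), H2ac25 (4.58 TPM), H3c3 (3.43 TPM), H2bc21 (3.15 TPM) and H2ac8 (2.01 TPM). H2bc21 had mean footprints of 3.04 TPM, the lowest ratio to its input among the members of that group with any footprints.

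**Figure D3:**
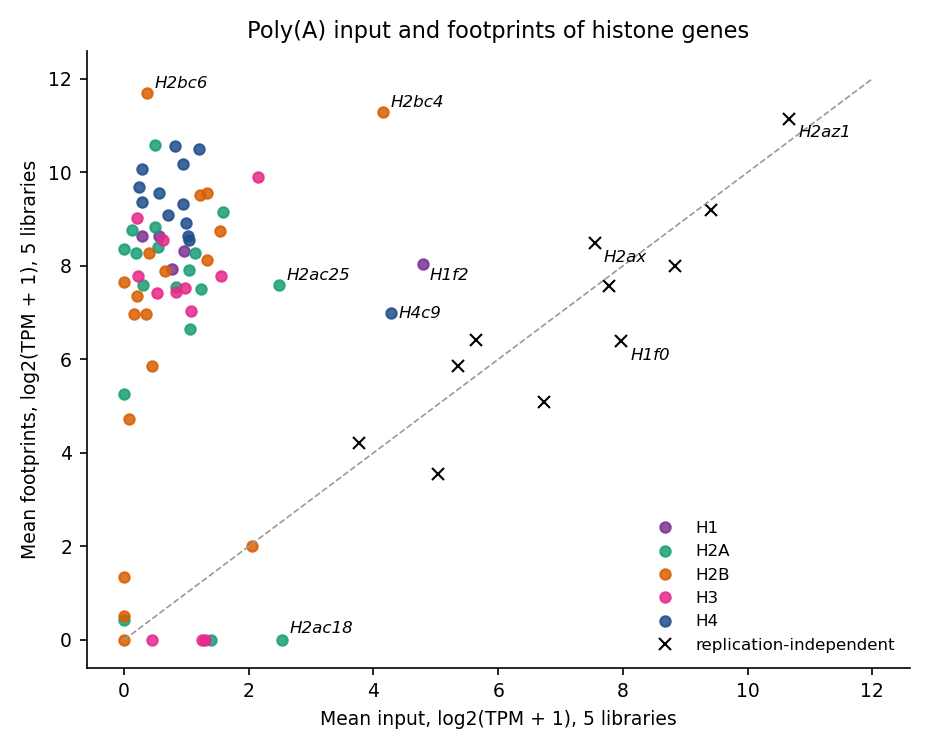
Mean footprints against mean poly(A) input, both as log2(TPM + 1) over 5 libraries, for the 66 replication-dependent histone genes (circles, by class) and 11 replication-independent histone genes (crosses), with the dashed line at equal values. Most circles sit at the left edge and high on the vertical axis, whereas the crosses follow the line, and H2ac18 lies at 0 footprints.

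The replication-independent histones, whose mRNAs carry poly(A) tails and are not tied to replication (H2ax mRNA exists in both forms), gave the opposite picture in the input. H2az1, an H2A variant, had a mean of 2269.5 TPM in footprints and 1618 TPM in input. H3f3b and H3f3a, which encode H3.3, had 581 and 256 TPM in footprints and 680.3 and 454 TPM in input. H2ax, the H2A variant marked at DNA breaks, had 356 and 186 TPM, and Cenpa, the centromeric H3, had 189 and 218 TPM. Each of these 5 had over 100 TPM in the mean of both readouts.

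Under guide 1 the histone footprints were higher than in WT in every class. Summed over a class, the log2 ratio to WT was 1.38 for H1, 0.95 for H2B, 0.73 for H3, 0.55 for H2A and 0.23 for H4, and it was 0.64 over all classes. In TPM the sums were 1269 in WT and 3307 under guide 1 for H1, 7356 and 14221 for H2B, and 9943 and 11695 for H4. In such bulk libraries more cells that make histone mRNA and more footprints per cell cannot be told apart. With 1 library a condition these differences have no replicate check.

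Gene by gene, 56 members passed the minimum of a mean footprint level of 5 TPM, and their differences were taken between values of log2(TPM + 1), where low genes appear to change less. Under guide 1, 15 of the 56 were at least 2-fold higher than in WT and 0 were at least 2-fold lower, where 15.9% of all 7857 genes tested were at least 2-fold higher and 10.6% at least 2-fold lower. The 15 were 5 of 5 H1, 6 of 14 H2B and 4 of 9 H3 genes, and no H2A or H4 gene. The 6 H2B genes include H2bc23 and H2bc24, whose identical values are counted as 2 genes. In all 52 of 56 were above WT and 4 below, against 53.3% and 46.7% of all genes, with a median difference of 0.62 against 0.08 for all genes. By class the median was 1.32 for H1, 0.93 for H3, 0.83 for H2B, 0.59 for H2A and 0.27 for H4.

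As a class H1 showed the widest gap, and H1f5 had the largest difference of them. The guide 1 differences were 1.77 for H1f5, 1.44 for H1f3, 1.32 for H1f2 and 1.27 for H1f4. H1f3 footprints were 292 TPM in WT and 796 TPM under guide 1, against 315 TPM under guide 2. H1f2 footprints were 209, 521 and 189.9 TPM in the same order. For both genes guide 2 was close to WT and guide 1 was far above it. The 4 leading H4 genes differed by 0.36 (H4c4), 0.06 (H4c18), 0.27 (H4c3) and 0.17 (H4c12) under guide 1.

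In TPM, which has a fixed total per library, the low mitochondrial share of the guide 1 footprints bears on all other genes alike. Whether it is tied to the histone difference was not tested. With mitochondrially encoded genes left out and each library rescaled, the guide 1 median was 0.40 and 8 members were at least 2-fold higher. This rescaling shifted the guide 1 log2 ratios of all genes alike, by -0.22, so it does not bring the histones nearer to other genes. The share of all genes past 2-fold was not computed under it. The log2 ratio of the H1 sum to WT was then 1.16, and that of the H4 sum was 0.02. The share of all histones in the footprints was 3.04% in WT, 4.09% under guide 1 and 2.79% under guide 2 by that scaling.

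Under guide 2 the histones as a whole were near WT. The log2 ratio of class sums was -0.10 for H1, 0.06 for H2A, 0.17 for H2B, -0.18 for H3 and -0.26 for H4. The H2A ratio was -0.01 without mitochondrially encoded genes, and the ratio of -0.05 over all classes was 0.02 with libraries rescaled to the same median, so neither has a steady direction. H2bc8 was the only member at least 2-fold higher and 0 were at least 2-fold lower, where 3.17% of all genes were higher and 5.05% lower by that much. The median over the 56 members was -0.02, against -0.04 for all genes, and 25 of 56 were above WT and 31 below, against 47.3% and 52.7% of all genes. In H4, 10 of 13 genes were below WT, with a median of -0.16, and in H2B 9 of 14 were above it, with a median of 0.19.

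The guide lines differed from each other in nearly every histone gene. The guide 1 value was above the guide 2 value in 55 of 56 members, where 56.3% of all genes were. H2ac12, named after its values were seen, was the exception, with 109 TPM under guide 1 and 112 TPM under guide 2. Both comparisons share the 1 WT library.

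H2bc8, an H2B gene of the large chromosome 13 cluster whose promoter is printed above, was the member at least 2-fold higher under both guides, where 0.853% of all genes were, and 0 members were lower by that much, where 1.65% of all genes were. Its footprints were 183 TPM in WT against 926 TPM with guide 1 and 398 TPM with guide 2, and 339.8 TPM in ff against 278 TPM in cKO. WT was the lowest of the 5 libraries and guide 1 the highest, and both TAM values lay between WT and guide 2. The differences were 2.34 under guide 1 and 1.12 under guide 2, and -0.29 in cKO. Its neighbour H2ac8 differed less, by 0.58, 0.20 and -0.01 in the same order.

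Across both guides no histone gene passed the test, which with 3 libraries could miss real differences. In limma on the 3 iBMDM footprint libraries, with Benjamini-Hochberg adjustment over all 7857 genes, 0 of 56 members had an adjusted p under 0.05, where 0.0127% of all genes (1 gene) did. The fit takes its spread from the differences between the 2 guides, with 1 residual degree of freedom per gene, and empirical Bayes pools it over genes. The SE, p and interval of a gene thus rest mainly on that pooled spread and little on the gene's own. The lone WT library is assumed to vary likewise. At an unadjusted p under 0.05 there was 1 member, H2bc8 (log2 difference 1.73, SE 0.73, unadjusted p = 0.0187, limma adjusted p = 1), where 1.06% of all genes were. Its 95% interval ran from 0.29 to 3.17.

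In the cKO library histone footprints were lower than in ff in most genes, by less than 2-fold. The log2 ratio of class sums was -0.43 for H1, -0.40 for H4, -0.38 for H3, -0.18 for H2B and -0.09 for H2A. Of the 56 members 48 were below ff and 8 above, where 64.2% and 35.8% of all 7397 genes tested were, and the median was -0.33 against -0.20 for all genes. No member was at least 2-fold apart, where 2.99% of all genes were at least 2-fold higher and 8.69% at least 2-fold lower. These values rest on 1 library a genotype and have no test.

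The lower levels in cKO were spread over the classes. All 5 H1 genes were below ff (median -0.44), as were 12 of 13 H4 genes (median -0.38), 8 of 9 H3 genes (median -0.34) and 13 of 14 H2B genes (median -0.30). In H2A 10 of 15 were below ff, and the median was -0.04. The leading H4 gene, H4c4, was at 65.4% of its ff level, H1f2 at 67.9% and H4c9 at 55.1%. Close to their ff level were H2ac6 at 96.9% and H2ac8 at 99.0%. When libraries were rescaled to the same median the H2A sum became 0.11 and the H2B sum 0.03, so the direction of these 2 classes depends on the scaling. H1, H3 and H4 were below ff under each of the 3 scalings tried, but with equal medians by less, at -0.23, -0.18 and -0.19.

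**Figure D4:**
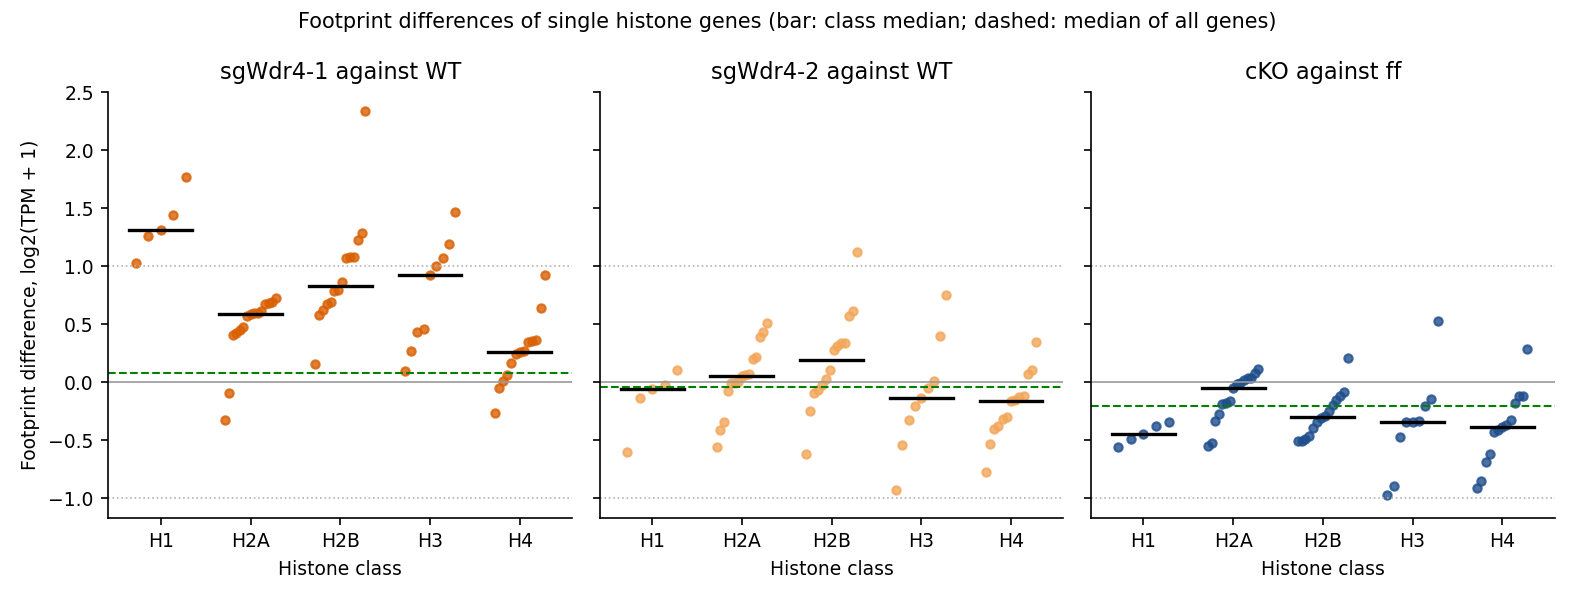
Footprint difference on the log2(TPM + 1) scale of each of the 56 measured histone genes, by class, for guide 1 and guide 2 against WT and for cKO against ff, with a black bar at the class median, a dashed line at the median of all genes and dotted lines at 2-fold. The H1 points lie above 1 under guide 1 and below 0 in cKO, and the guide 1 point at the top of the H2B column is H2bc8.

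The guide 1 and cKO differences share no library and were weakly correlated over the histone genes. Over the 56 members Pearson's r between them was 0.15 and Spearman's rho 0.16, and between guide 2 and cKO they were 0.22 and 0.28. Over all 7192 genes measured in both tables the values were -0.24 and -0.28 for guide 1 and 0.44 and 0.44 for guide 2. The guide 1 and cKO differences had the same sign in only 10 of 56 members, and those of guide 2 and cKO in 29 of 56. Over all 7192 genes the signs were the same in 2858 and 4769 genes. These are descriptions across genes, which share reads and a library total and are not independent.

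The proportions of the classes within a library do not depend on the scaling of that library. The ratio of summed H2A to summed H4 footprints was 0.473 in WT and 0.477 in ff, and it was 0.588 under guide 1, 0.590 under guide 2 and 0.590 in cKO. The 3 targeted libraries lay above both controls without overlap, by 1.24-fold in the mean. The ratio of H2B to H4 was 0.740 in WT and 0.766 in ff, against 1.22 under guide 1, 1.00 under guide 2 and 0.892 in cKO, again without overlap and 1.38-fold higher in the mean. For both ratios the exact two-sided permutation test over the 5 libraries gave p = 0.2, which is the smallest p that its 10 arrangements allow, and 0.5 after Benjamini-Hochberg adjustment over the 5 ratios computed. With labels exchanged only within a table there are 6 arrangements, and the exact two-sided permutation p was 0.333 for both, again the smallest possible. Neither test can pass 0.05 with these libraries.

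Taken over both tables together, the other class ratios overlapped between targeted and control libraries. H1 to H4 was 0.128 in WT and 0.117 in ff, against 0.283, 0.143 and 0.114 under guide 1, under guide 2 and in cKO (exact permutation p = 0.6, and p = 0.667 within tables). H3 to H4 was 0.271 and 0.258 against 0.383, 0.287 and 0.261 (exact permutation p = 0.4, and p = 0.333 within tables). For H3 to H4 each targeted library was above the control of its own table, and this within-table p was also the smallest possible. H2A to H2B was 0.639 and 0.622 against 0.484, 0.589 and 0.661 (exact permutation p = 0.6, and p = 1 within tables). The high H1 ratio was seen in the guide 1 library alone. The ratios were chosen after the class sums had been seen.

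**Figure D5:**
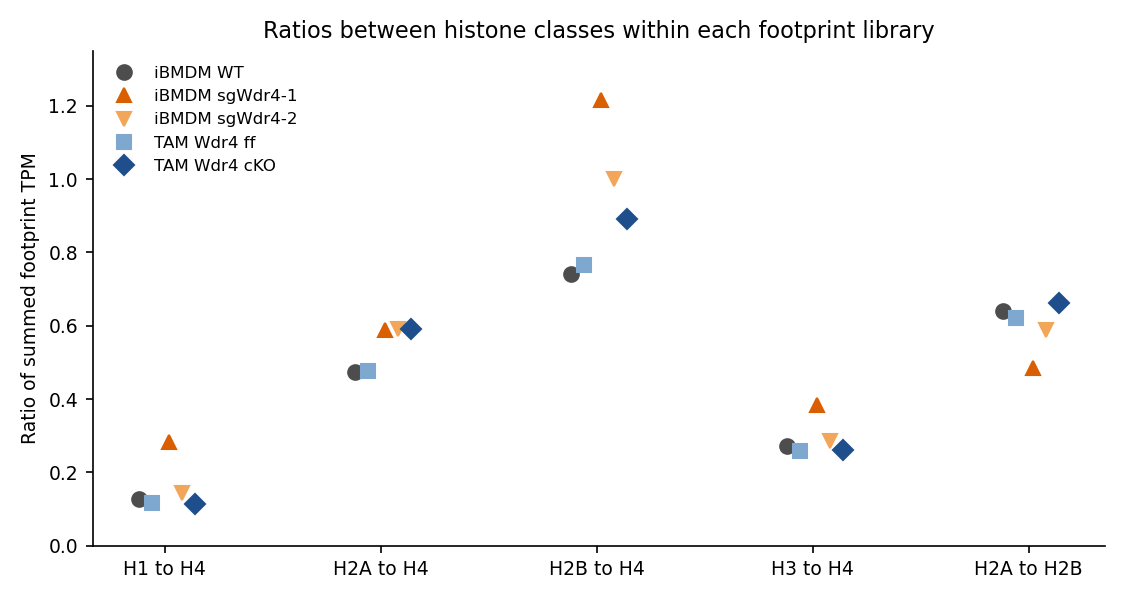
Ratio of summed footprint TPM between histone classes within each footprint library, with 1 point per library. For H2A to H4 the 3 targeted libraries lie between 0.588 and 0.590 and the controls at 0.473 and 0.477, and for H2B to H4 the targeted libraries also lie above both controls.

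Both non-overlapping ratios kept their order when the class composition was altered. Both divide by the same H4 sum and each setting reuses the same libraries, so these are not independent checks. How often ratios of other gene sets separate these libraries was not examined. Without the highest member of each class H2A to H4 was 0.406 in WT and 0.409 in ff, against 0.494, 0.504 and 0.486 in the targeted libraries, and H2B to H4 was 0.535 and 0.587 against 0.952, 0.762 and 0.648. Without H1f2, H4c9 and H2bc4, the members above 10 TPM in every input library, the 3 targeted libraries were also above both controls in both ratios. Geometric means over members gave the same order, and the gap was narrower for H2B to H4, where the ff value was 0.395 and the cKO value 0.428. By geometric means H3 to H4 also lay apart, narrowly, at 0.366 in WT and 0.359 in ff against 0.522, 0.391 and 0.369. Without guide 1 the remaining targeted libraries were above both controls too.

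Few single genes set the targeted libraries apart from the controls. In 3 of 56 members all 3 targeted libraries were above both controls (H2ac4, H2bc14 and H4c8), where 6.79% of 7192 genes were, and in 3 of 56 they were below both (H2ac22, H4c6 and H4c17), where 13.1% were. A limma fit of 3 targeted against 2 control libraries with the table as a term called 0 of 56 members, where it called 0% of all genes. The lowest unadjusted p of a member was 0.171 (H4c8), where 2.88% of all genes were under 0.05. Of these genes H4c8 footprints were 303 TPM in WT against 578 TPM with guide 1 and 386 TPM with guide 2, and 320.1 TPM in ff against 391 TPM in cKO. H4c17 footprints were 771 TPM in WT against 642 TPM with guide 1 and 451 TPM with guide 2, and 701 TPM in ff against 621 TPM in cKO. In H4c8 the control libraries were the lowest in each table, and in H4c17 guide 2 was the lowest and WT the highest. H2ac4 is among the leading H2A genes, and the other 5 were named after their values were seen.

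Genes that serve histone mRNAs and histone proteins were described from lists, given as median log2 footprint differences under guide 1, under guide 2 and in cKO. The 11 replication-independent histones had medians of 0.59, 0.09 and -0.04, and 1 gene, H1f10 under guide 1 (1.09, from 14.4 to 31.6 TPM), was at least 2-fold apart. In the same order 15.9%, 3.17% and 2.99% of all genes were at least 2-fold higher and 10.6%, 5.05% and 8.69% at least 2-fold lower. The factors of histone mRNA transcription, 3' end processing and decay (25 measured in the iBMDM libraries and 22 in the TAM libraries) had medians of 0.35, 0.14 and -0.02. At least 2-fold higher were 5 of them under guide 1, 1 under guide 2 and 3 in cKO, and 0 were lower, where 15.9%, 3.17% and 2.99% of all genes were higher. Slbp, the stem-loop binding protein, had footprints of 157 TPM in WT against 269 TPM with guide 1 and 149 TPM with guide 2, and 149.6 TPM in ff against 112 TPM in cKO. Its guide 1 value was the highest and its cKO value the lowest, as in the H1 genes, with differences of 0.77, -0.07 and -0.42. In cKO the 3 higher genes were Ctbp1, a corepressor (1.53), Lsm1, of the cytoplasmic decay complex (1.51), and Cpsf3, the endonuclease that cleaves histone pre-mRNA (1.42).

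Histone chaperones, importers and acetyltransferases had medians of 0.69, 0.13 and -0.31 over 29, 29 and 27 measured genes. At least 2-fold higher were 8 under guide 1, 0 under guide 2 and 1 in cKO, and at least 2-fold lower were 0, 0 and 1. Of all genes 15.9%, 3.17% and 2.99% were higher and 10.6%, 5.05% and 8.69% lower. In cKO these were Hira, an H3.3 chaperone subunit (1.45, 2.71 TPM in ff and 9.14 TPM in cKO), and Daxx, another H3.3 chaperone (-1.11, 16.2 and 6.999 TPM). No member of the list passed 2-fold the same way with both guides.

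S phase and DNA replication genes, 46 measured, had medians of 0.89, 0.04 and -0.41, against 0.62, -0.02 and -0.33 for the replication-dependent histones and 0.08, -0.04 and -0.20 for all genes. Under guide 1 22 were at least 2-fold higher and 1 lower, under guide 2 none was past 2-fold, and in cKO 7 were lower and 0 higher. Of all genes 15.9% were higher and 10.6% lower under guide 1, 3.17% were higher and 5.05% lower under guide 2, and 8.69% were lower and 2.99% higher in cKO. In the poly(A) input the median log2 differences of these S phase genes were 0.13 under guide 1, 0.03 under guide 2 and 0.04 in cKO. Lig1, the replicative DNA ligase, had footprints of 9.78 TPM in WT against 51.02 TPM with guide 1 and 8.72 TPM with guide 2, and 16.8 TPM in ff against 4.77 TPM in cKO. Mcm7, a subunit of the replicative helicase, had 254 TPM in WT against 569 TPM with guide 1 and 141 TPM with guide 2, and 211 TPM in ff against 68.99 TPM in cKO. Dnmt1, which maintains DNA methylation behind the fork, had 15.8 TPM in WT against 65.5 TPM with guide 1 and 8.78 TPM with guide 2, and 14.9 TPM in ff against 5.45 TPM in cKO. In all 3 genes guide 1 was the highest library and cKO the lowest. These 3 were named for the largest drops of the list in cKO, so their low cKO values follow from that choice. Of the 46 genes, 40 were above WT under guide 1, where 53.3% of all genes were. In cKO 11 of the 46 were above ff, where 35.8% of all genes were. No member of any of these lists had an adjusted p under 0.05 in limma across both guides.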

How the data were processed

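The authors deposited 2 tables of TPM, holding 6 iBMDM and 4 TAM libraries, with 21956 rows each. The submitters' processing notes name Bowtie2 and fastp 0.18.0. The sources used here do not give the genome build, the annotation, the quantifier or the assignment of reads to near-identical copies. TPM keeps no read depth, so no counting interval is given. Input RNA was enriched for mRNA on capture beads and footprints were made with RNase I, per the labels' protocols.

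The members and the gene lists were chosen with earlier results of these data known. The AC box letters, the class ratios and the rescaled class sums were added after values were seen. For 20 repeated symbols the row with the highest mean was kept. Values were tested as log2(TPM + 1) where the mean footprint TPM of a table was at least 5. The size rule was 2-fold. Limma 3.58.1 in R 4.3.3 compared 2 guides with 1 WT library. It used empirical Bayes with an expression trend, two-sided p-values and Benjamini-Hochberg adjustment over all genes, with a threshold of 0.05. On simulated data it missed nearly all genes that were set apart, so a gene not called may still differ. Separate cultures or animals are not stated in the labels, so p-values may measure technical spread only. Class ratios were compared by an exact permutation test over all libraries and, added later, within tables.

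Named were, in each class, the 4 members with the highest mean log2 footprints, the 8 with the highest mean input of at least 1 TPM, and members past 2-fold the same way with both guides; companion genes were named by size under both guides or in cKO. RefSeq tables (GRCm38.p6) matched 62 members, of which 57 had a promoter window. No coordinate was taken from the deposited tables. Alternatives changed the pseudocount, the minimum level, the scaling, repeated symbols, the trend, the libraries fitted and the class make-up. Python 3.11.15, numpy 2.4.6, pandas 2.3.3, scipy 1.17.1 and matplotlib 3.10.9 were used.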

Additional observations from a re-analysis of the deposited data

Results flagged for a closer look

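The H2A and H2B class sums went opposite ways in the 2 tables as deposited. The log2 ratio of the H2A sum to its control was 0.55 under guide 1, 0.06 under guide 2 and -0.09 in cKO, and the mean of both guides was above cKO by 0.40. For H2B the ratios were 0.95, 0.17 and -0.18, and the mean of both guides was above cKO by 0.74. The difference between the tables was not tested, as each condition has 1 footprint library. The H2A ratio was -0.01 under guide 2 without mitochondrially encoded genes and 0.11 in cKO with libraries rescaled to the same median, and the H2B ratio in cKO was then 0.03.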

How the results depend on the processing

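No paired analysis was possible because each condition has 1 library of a kind, so its number pairs no samples. No member passed limma in any of the 11 fits, the one with the table as a term included. Under guide 1 the median of 0.62 was 0.40 without mitochondrially encoded genes, 0.45 without these, ribosomal protein and histone genes, and 0.50 with equal library medians, and the 15 members at least 2-fold higher were 8, 9 and 9 in the same order. The cKO median of -0.33 was -0.22 under the second and -0.12 under the third of these. With a mean footprint minimum of 1 TPM, or none, 1 member was at least 2-fold higher and 1 lower in cKO, and with none 3 were higher under guide 2. The genes so added are under 10 TPM in every footprint library. The 3 scalings shift every guide 1 difference by -0.22, -0.17 and -0.12 and every cKO difference by 0.06, 0.11 and 0.21. They shift all other genes alike, and shares of all genes past 2-fold were computed for the main setting only. The median for the mean of both guides was 0.33, and 0.18 without mitochondrially encoded genes. Leaving out guide 1 gave -0.021 and leaving out guide 2 gave 0.62, so that median rests on guide 1. Without mitochondrially encoded genes the histone share of footprints was 3.04% in WT, 2.79% with guide 2, 3.30% in ff, 2.85% in cKO. Class sums that changed sign were H2A under guide 2 (-0.013, without mitochondrially encoded genes), all classes under guide 2 (0.016, equal medians), H2A in cKO (0.017 without the genes of all 3 groups, 0.11 with equal medians) and H2B in cKO (0.027, equal medians). Apart from the scalings, the cause of these shifts was not tested. With 1 library per condition and unknown depth, small differences between libraries cannot be told from noise.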
